A study of Rattus norvegicus with 15 samples.

Results

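The transient state of rat alveolar epithelial cells at D2 was taken from 15 Illumina RatRef-12 expression arrays, and is described here by the probes at which the D2 arrays stood above, or below, both the starting and the final day. The members were found with the contrast D2 − (D0 + D8)/2, fitted over all 22523 probes with slide 1 against slides 2 and 3 as a block, and a called probe was kept where the D2 mean lay above both the D0 mean and the D8 mean (a peak) or below both (a trough). This gave 1684 peaks (7.48% of probes, 1276 named genes of 13337) and 1276 troughs (5.67% of probes, 919 named genes). Of these, 346 peaks (1.54%) and 193 troughs (0.857%) also differed from D0 and from D8 when each day was tested on its own, and these are called below peaks and troughs against both days. The D2, D0 and D8 values chose the members, so that counts and shares of members are a description of these arrays.

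Alveolar epithelial type 2 (AT2) cells were isolated from male rats and left to differentiate in culture with no agent added, and RNA was taken at D2, D4, D6 and D8 of culture and at D0, the start of the time course, with 3 arrays a day. No genotype, strain or age is named, and the labels give no difference between the groups other than the day and the slide of each array. By D8 the cultures are regarded as AT1-like, and the culture is a model of the AT2 to AT1 transition away from the tissue of the alveolus. Markers of other cell types were measured at D2, as given at the end. The labels do not say whether the 3 arrays of a day came from separate purifications, so that p-values measure only the spread between these arrays, which may be technical, and the number of arrays limits the precision.

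In the lung, AT2 cells make surfactant and renew the epithelium, while AT1 cells are thin and carry gas exchange. AT2 cells placed in culture lose surfactant genes, spread and take on AT1 genes over several days, and pass on the way through states that neither mature cell type shows. A contrast of an intermediate day with the mean of both end points picks up such passing levels. It also picks up one-way losses and gains that are already made by the intermediate day and then last. The contrast alone thus does not separate them, and a difference from each end point on its own is asked for as well.

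The label genes ran as the time course states. Sftpc, the AT2 surfactant protein C gene, had VSN levels of 10.16, 10.40 and 8.35 at D2, against 15.36, 15.33 and 15.21 at D0 and 5.45, 5.16 and 6.84 at D8 (log2 signal, 1 value per array). The D2 arrays stood between the days without overlap, and the third D2 array, on slide 2, was the lowest of its day. The first and second D8 values lay below the lowest detected signal of their arrays (6.364 and 6.305). Sftpc was thus not detected there, and the D8 part of its contrast rests partly on signal at background. The contrast was not called for Sftpc with VSN (−0.92 ± 0.43 (SE), limma adjusted p = 0.184), and was −0.22 without the third D2 array. It was called with the authors' normalized values (−1.46, limma adjusted p = 0.000834), with quantile normalization (−1.42, 0.0012) and with median scaling (−1.28, 0.00339). Aqp5, the AT1 water channel, was higher at D2 than at D0 (2.27 on the log2 scale) and lower than at D8 (−0.83), and Pdpn, a membrane glycoprotein of AT1 cells, differed between D2 and D8 by −0.21 (limma adjusted p = 0.522). Of 14 measured AT2 markers and 22 AT1 markers, 0 were peaks or troughs against both days. Of all named genes, 1.89% were such peaks and 1.17% such troughs, so that 0 in lists of this size does not set the markers apart. Ctsh and Slc6a14 were kept peaks and Fgfr2, Lpcat1 and Sftpd kept troughs among the AT2 markers. Krt7 and Timp3 were kept peaks among the AT1 markers.

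Over all probes the contrast called 1962 probes higher at D2 (8.71%) and 1609 lower (7.14%) by limma with Benjamini-Hochberg adjustment at 0.05, so that 54.9% of the calls were higher. When arrays were scaled to a common median in place of VSN, this share was 75.7%. No filter on low values was applied before the test. The median contrast of all probes was −0.01. Against single days, D2 was called higher than D0 at 14.1% of probes and lower at 11.4%, and higher than D8 at 3.08% and lower at 2.32%. D2 was thus tested as different from D8 at far fewer probes than from D0, and the comparison with D8 decided most of the split that follows.

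Of the 1684 kept peaks, 1183 differed from D0 alone, 104 from D8 alone and 51 from neither day. Of the 1276 kept troughs, 977 differed from D0 alone, 69 from D8 alone and 37 from neither day. Of the peaks on one side 796 were lasting increases, with D2 and D8 both called above D0, and of the troughs on one side 681 were lasting decreases. The rule for a kept probe thus took in many genes that had changed by D2 and stayed changed, and the account below rests on the 346 and 193 probes that differed from both days. Those counts depend on single arrays. Peaks against both days numbered 225 without the second D2 array, 184 without the second and 192 without the third D8 array, and troughs 113 without the first or the second D2 array and 100 without the second or the third D8 array. The smaller of the differences from D0 and D8, called the excursion here, had a median of 0.97 on the log2 scale over the 346 peaks (0.45 to 3.13) and −0.90 over the 193 troughs (−2.82 to −0.45). At the edge of the call, Kansl3 was just inside, with a contrast of −0.59 and levels of 6.01 at D2, 6.89 at D0 and 6.31 at D8, and Fdxacb1 was just outside, with a contrast of −0.59 and levels of 8.10, 8.63 and 8.75 at D2, D0 and D8.

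**Figure D1:**
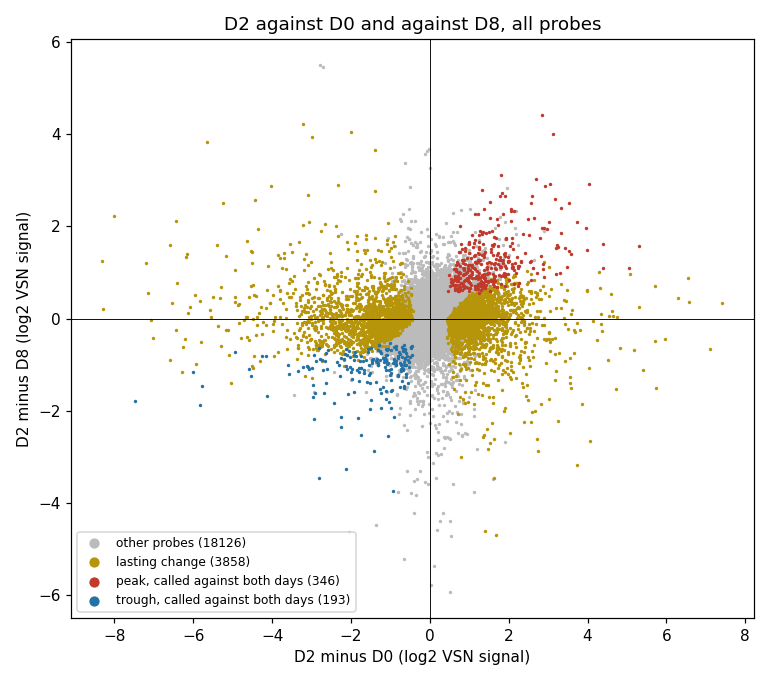
Each point is 1 of 22523 probes, with D2 minus D0 on the x axis and D2 minus D8 on the y axis (log2 VSN signal). The 346 peaks lie in the upper right and the 193 troughs in the lower left, while the 3858 lasting changes spread along the x axis.

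The slides bear on every value, since slide 1 holds 2 arrays of each day, the third D2 and D4 arrays lie on slide 2, and the third D0, D6 and D8 arrays on slide 3. Between slides 2 and 3, slide and day cannot be told apart. On slide 1 the D2 mean lay outside both days at 346 of 346 peaks and 193 of 193 troughs, and on the other slides at 346 and 192. Over all 22523 probes it lay outside, in either direction, at 13915 on slide 1 and at 14306 on the other slides. The same arrays chose the members, so that these counts are no separate check of the slides. Fitted on slide 1 alone, 171 of the peaks and 88 of the troughs were still called against both days, and 323 and 183 were still kept. Every D2 array lay above every D0 and D8 array at 310 of 346 peaks, which holds for 4.02% of all probes, and below them at 175 of 193 troughs (3.13% of all probes).

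The 346 peaks carried 255 named genes and the 193 troughs 156. Part of the peaks came up from below detection, with 325 peaks detected on all D2 arrays (detection p under 0.01), against 84 detected on none of the D0 arrays, 57 on none of the D8 arrays and 50 on neither day. Of all 22523 probes, 8405 were detected on all D2 arrays, 13069 on none of the D0 arrays, 12759 on none of the D8 arrays and 11976 on neither day. Lack of detection at the end points was thus less common among peaks than among all probes. The choice of members favours this, since a probe without signal on any day can hardly be called. Troughs were mostly bright at the end points, with 28 detected on none of the D2 arrays and 167 on all D0 and D8 arrays. The end points themselves did not differ by test at 218 peaks and 106 troughs. Where they did, 111 peaks were higher at D8 than at D0 and 17 lower, and 17 troughs were higher at D8 and 70 lower.

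Genes of cholesterol synthesis had the highest share of peaks among the 40 lists examined. Of 17 measured genes, 10 were peaks against both days (58.8%, against 1.89% of all 13337 named genes), 5 more were kept peaks, and 0 were troughs. Among named genes as a whole, 9.47% were kept peaks and 6.82% kept troughs. Among the 7465 named genes detected on at least 3 arrays, 3.16% were peaks and 2.01% troughs against both days, and 15.9% and 10.4% were kept. The 10 were Acat2, Pmvk, Mvd, Fdps, Sqle, Cyp51, Tm7sf2, Nsdhl, Hsd17b7 and Dhcr7, with steps from the joining of acetyl-CoA units to the last reduction of the sterol. Ebp, Fdft1, Msmo1, Sc5d and Srebf2, the last of which encodes the transcription factor of the pathway, were peaks on one side. The median contrast of the list was 1.26, and Idi1 (0.47) and Stard4 (0.24) were not called.

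Dhcr7, the last enzyme of the main branch, had levels of 11.63, 11.54 and 11.90 at D2, against 9.81, 10.67 and 9.82 at D0 and 10.09, 9.93 and 10.31 at D8. All D2 arrays stood above all others, and the end points overlapped. D2 exceeded D0 by 1.59 and D8 by 1.58 (limma adjusted p = 0.000149 and 0.00128). Tm7sf2, a sterol reductase, had 10.04, 10.04 and 10.69 at D2, against 8.51, 9.22 and 8.50 at D0 and 8.23, 7.55 and 7.39 at D8. Here D8 lay below D0 as well (−1.02), and a second probe of the gene was also a peak against both days. Tm7sf2 was the only gene with such a match. Of 11 pairs of a member probe with another detected probe of its gene, 7 had the same sign of contrast. In 2 the other probe was called alike, and both were Tm7sf2 read from each probe. The signs differed for Cfap52 and Sqstm1. Acat2, which joins acetyl-CoA units at the head of the pathway, had 13.35, 13.06 and 13.40 at D2, against 11.89, 12.20 and 11.78 at D0 and 11.73, 11.17 and 11.43 at D8. Fdps, which makes farnesyl pyrophosphate, had 13.06, 13.13 and 13.15 at D2, against 11.37, 12.03 and 11.28 at D0 and 12.01, 12.07 and 11.64 at D8. In both genes the 3 D2 arrays lay close together above the others.

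By D4 the sterol genes had returned. The median of the 10 genes had gone 95.9% of the way from the D2 to the D8 level at D4, and 105% at D6. The median deviation of all 17 genes from their own 15-array mean was 0.87 to 1.08 over the D2 arrays, against −0.58 to 0.19 over the D0 arrays and −0.37 to −0.08 over the D8 arrays. Fads2, a desaturase of polyunsaturated fatty acids, was the only fatty acid synthesis gene of 20 measured that was a peak against both days (8.19 at D2, 6.51 at D0 and 6.44 at D8). Abca1, the exporter of cellular cholesterol, ran the other way and was chosen after its values were seen. It had 7.90, 8.06 and 7.50 at D2, against 10.59, 10.67 and 10.25 at D0 and 9.39, 9.75 and 9.14 at D8, and all D2 arrays lay below the rest.

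Interferon genes were the next group of peaks. Interferons signal through transcription factors, IRF9 among them, to elements in the promoters of antiviral genes, and many genes of antigen presentation by MHC class I answer to the same signal. Of 28 measured interferon genes, 12 were peaks against both days (42.9%), namely Gbp2, Ifi27, Ifi44, Irf7, Irf9, Irgm, Mx2, Psmb8, Psmb9, Rtp4, Stat2 and Usp18, and Igtp, Oas1a and Rig1 were peaks on one side. The list's median contrast was 0.98. Kept peaks numbered 15 in this list and in the cholesterol list, and peaks against both days were more numerous in the interferon list under 7 of 23 alternatives and in the cholesterol list under 15. Without the first D2 array the list counted 6 peaks against both days, and without the first or the second D8 array 7. Of 16 measured MHC class I and antigen processing genes, 7 were peaks against both days (43.8%), namely Psmb8, Psmb9, Psme2, RT1-A1, RT1-N3, Tap2 and Tapbp, 4 were kept on one side, and the median contrast was 0.92. Psmb8 and Psmb9 are in both lists. Probes of the RT1, Oas and Ifi27 families can also take signal from near-identical relatives, so that the level of a single member is uncertain.

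Promoters are shown for some of these genes, picked from those in which a short letter pattern was found. The pattern GAAA, any 2 bases, GAAA, the core of the interferon-stimulated response element, was searched on both strands of the RefSeq promoters of build GRCr8, which run from 250 bases before to 50 bases after each gene start. It was present in 6 of the 9 interferon peaks against both days that had a promoter entry, and in 5 of 7 for MHC class I. Psmb8 counts in both. Irf9, Stat2, Psmb9 and RT1-A1 held 0 matches. Of all 33469 promoters 3.92% held the pattern. The lists were drawn up as interferon and antigen processing genes, whatever their level at D2. List genes that were not peaks were not searched, so that these shares cannot be tied to the D2 level. The capitals mark the pattern, read as TTTC, any 2 bases, TTTC where it lies on the other strand, and overlapping matches run together. The windows are chr1:205799974-205800273 (minus strand) for Irf7, chr6:128355062-128355361 (plus) for Ifi27, chr2:243303791-243304090 (minus) for Ifi44, chr20:4656982-4657281 (minus) for Psmb8 and chr20:4967828-4968127 (minus) for Tapbp.
Irf7: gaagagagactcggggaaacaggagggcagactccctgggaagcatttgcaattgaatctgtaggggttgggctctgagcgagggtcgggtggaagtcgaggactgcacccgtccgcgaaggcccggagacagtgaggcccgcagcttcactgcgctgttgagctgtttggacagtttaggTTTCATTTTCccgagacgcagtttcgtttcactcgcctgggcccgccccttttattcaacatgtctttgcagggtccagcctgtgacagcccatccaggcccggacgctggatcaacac
Ifi27: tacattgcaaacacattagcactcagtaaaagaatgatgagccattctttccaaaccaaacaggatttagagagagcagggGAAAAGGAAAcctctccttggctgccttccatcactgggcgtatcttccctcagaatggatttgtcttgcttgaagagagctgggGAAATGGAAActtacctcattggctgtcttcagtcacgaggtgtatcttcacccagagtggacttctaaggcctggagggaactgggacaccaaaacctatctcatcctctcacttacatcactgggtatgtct
Ifi44: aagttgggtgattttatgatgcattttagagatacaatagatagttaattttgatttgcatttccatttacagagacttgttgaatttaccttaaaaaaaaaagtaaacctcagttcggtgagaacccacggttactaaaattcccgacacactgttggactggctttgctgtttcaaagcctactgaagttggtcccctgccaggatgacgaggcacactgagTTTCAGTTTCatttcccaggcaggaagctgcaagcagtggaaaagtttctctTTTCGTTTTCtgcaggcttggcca
Psmb8: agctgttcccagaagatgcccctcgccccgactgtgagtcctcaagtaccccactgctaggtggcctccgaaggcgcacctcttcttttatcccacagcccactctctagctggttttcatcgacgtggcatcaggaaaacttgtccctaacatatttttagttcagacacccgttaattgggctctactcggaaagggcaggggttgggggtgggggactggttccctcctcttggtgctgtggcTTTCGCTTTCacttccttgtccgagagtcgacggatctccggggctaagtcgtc
Tapbp: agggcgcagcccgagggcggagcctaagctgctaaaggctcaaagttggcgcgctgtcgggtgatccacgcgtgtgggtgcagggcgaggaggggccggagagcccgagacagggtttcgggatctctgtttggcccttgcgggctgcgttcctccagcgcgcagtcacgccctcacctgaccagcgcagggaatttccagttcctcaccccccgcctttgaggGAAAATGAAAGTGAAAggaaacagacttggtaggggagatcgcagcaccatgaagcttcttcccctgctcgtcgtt
A match is a description of these letters and was not tested as a site. Patterns were searched in the same way for the other lists. TCACNCCAC, a sterol regulatory element, was in 0 of 8 cholesterol genes (1.12% of all promoters), TGACNNNGC, an antioxidant response core, in 0 of 6 NRF2 genes (12.1%) and TGATGNAA, an ATF4 composite element, in 0 of 4 ATF4 genes (3.98%). ACGTG, a hypoxia response core, was in 2 of 6 glycolysis genes, Gapdh and Pdk1 (19.3% of all promoters).

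Irf7, Irf9 and Stat2, transcription factors of the interferon list, were among its peaks against both days. Irf7 had levels of 12.28, 11.47 and 10.64 at D2, against 10.30, 10.03 and 9.97 at D0 and 8.40, 9.42 and 9.43 at D8. The 3 D2 arrays spread widely but stayed above the rest. Stat2, chosen after its values were seen, had 10.06, 9.72 and 9.66 at D2, against 7.05, 6.88 and 7.34 at D0 and 8.82, 8.89 and 8.77 at D8. Irf9, chosen likewise, averaged 9.60 at D2, 8.83 at D0 and 8.72 at D8, the smallest excursion of the 3. Under 23 alternatives Irf9 was called against both days in 6 and kept in 19, Irf7 was called in 13 and kept in 23, and Stat2 was called in 23. Among effectors, Mx2, an antiviral GTPase, had 11.49, 10.01 and 9.38 at D2, against 7.29, 7.49 and 6.99 at D0 and 6.62, 7.82 and 7.68 at D8. Rtp4, an interferon-induced chaperone of receptors, had 12.73, 12.20 and 12.12 at D2, against 8.71, 8.92 and 8.24 at D0 and 9.93, 10.52 and 10.35 at D8. For Mx2, Irf7 and Usp18 the first D2 array was the highest, and in the 4 genes with array values given here D2 did not overlap with D0 or D8. Usp18, which removes ISG15 from proteins, was detected on 3 of 3 D2 arrays and on 0 of 3 D0 arrays, and was at least 3.07-fold higher at D2 than at D0.

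Genes of antigen processing were also among the peaks. Tapbp, the tapasin of the peptide loading complex, had 12.47, 12.27 and 11.92 at D2, against 10.42, 10.30 and 10.35 at D0 and 10.93, 10.81 and 11.14 at D8, with no overlap. Psmb8, a subunit of the immunoproteasome, had 12.49, 12.58 and 11.77 at D2, against 11.35, 11.45 and 10.86 at D0 and 11.36, 11.31 and 11.15 at D8. Its D2 arrays exceeded all others, and D0 and D8 overlapped. Not all of the group peaked. B2m, the light chain of MHC class I, had a contrast of −0.28 and Tap1 one of 0.57, neither called, and Ifitm1 was a trough against both days (7.03 at D2, 8.09 at D0 and 9.57 at D8). Of 7 measured MHC class II genes 0 were kept, and 7 were lower at D8 than at D0. Of the interferon list 22 of 28 genes were detected on at least 3 arrays. Outside the list, Ifi27l2b was among the 12 largest peaks, and Oasl2, Tnfsf10, Dhx58 and Ube2l6, chosen after their values were seen, were peaks with excursions of 1.97, 1.95, 1.43 and 1.38.

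At D4 the interferon genes stood nearer to D2 than the sterol genes did. The median interferon peak against both days had gone 39.4% of the way to its D8 level at D4 and 57.0% at D6, and the median MHC class I peak 71.1% and 83.6%. Usp18 was 13.6% of the way back at D4, Irf9 18.4% and Mx2 27.4%. The shares of the 2 lists were not tested against each other. In bulk RNA, fewer cells of a type and less RNA per cell cannot be told apart. The summed signal of 19 macrophage and leukocyte markers was 17200 to 40700 over the D2 arrays, against 30900 to 39200 at D0 and 42900 to 51300 at D8, and 1 of the 19, Fcgr2b, was a kept peak. The 13 lymphocyte markers summed to 689 to 992 at D2, 1090 to 1380 at D0 and 600 to 912 at D8. Gzmb, a granule protease of cytotoxic cells, was the 1 lymphocyte peak against both days, with 6.97 at D2 close to the limit of detection. The part of these cells in the interferon result was not tested.

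**Figure D2:**
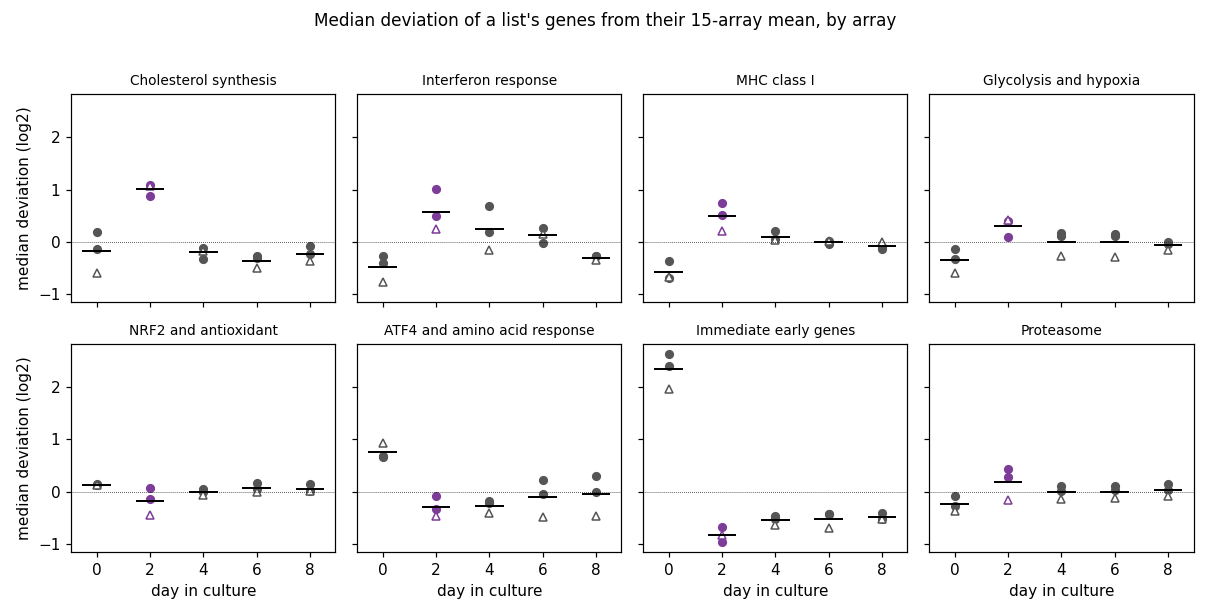
Median deviation of a list's genes from their own 15-array mean (y axis, log2) by day in culture (x axis), 1 point per array (circles, slide 1; triangles, slides 2 and 3; line, mean of 3). The cholesterol list is high on the 3 D2 arrays alone (0.87 to 1.08), the interferon list runs from −0.16 to 0.68 at D4 and from −0.01 to 0.27 at D6, and the immediate early genes are high at D0 (1.97 to 2.64).

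Glycolytic genes, several of them targets of hypoxia-inducible factor, were the fourth group. Of 27 measured genes, 7 were peaks against both days (25.9%), 4 more were kept peaks, 2 were kept troughs on one side, and the median contrast was 0.44. Slc16a3, the lactate exporter MCT4, had levels of 14.07, 14.23 and 14.14 at D2, against 11.97, 11.83 and 11.43 at D0 and 12.67, 12.90 and 12.63 at D8. The D2 arrays lay close together and above the rest, and D8 stayed above D0 (0.99, limma adjusted p = 0.00151). Pdk1, the kinase that turns pyruvate away from the mitochondrion, had 10.92, 11.13 and 11.26 at D2, against 9.63, 9.46 and 8.80 at D0 and 10.19, 10.23 and 9.50 at D8. Pfkl, a phosphofructokinase, was highest on the third D2 array (11.58, against 10.29 and 10.44), with 8.65 to 9.07 at D0 and 9.18 to 9.68 at D8. For both genes D2 did not overlap with either day.

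The enzymes of the lower path rose as well, with Tpi1, Gapdh, Pgk1 and Eno1 exceeding D0 by 1.07, 1.17, 1.28 and 2.88 and D8 by 1.13, 0.69, 0.71 and 1.07 on the log2 scale (all limma adjusted p under the threshold in the same fit). The last 3 were chosen after their values were seen. For Eno1 the third array was the lowest of each day, and its D2 value on slide 2 (9.15) fell below the highest D8 value on slide 1 (9.25). Adm, a vasodilator peptide, and Hk2, the first enzyme of glucose use, were the troughs on one side, so that the list moved in both directions. The median of the 7 peaks was 66.2% of the way back at D4 and 87.5% at D6. Without the second or the third D2 array, or the second or the third D8 array, the list counted 4 peaks against both days in place of 7.

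**Figure D3:**
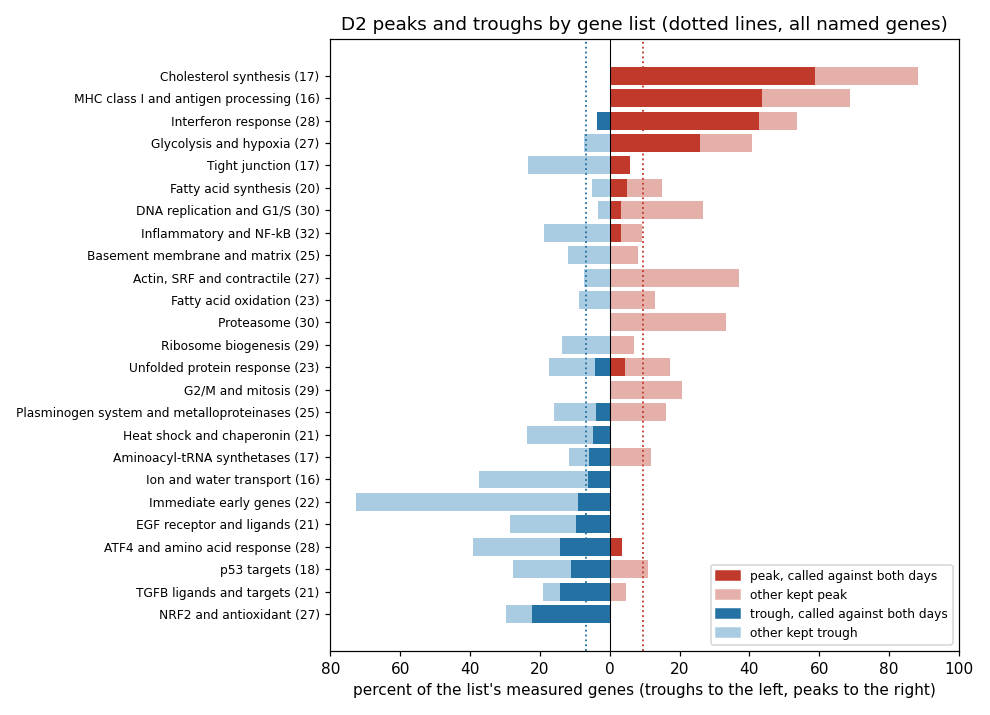
Share of each list's measured genes (number in brackets) that were peaks, to the right, or troughs, to the left (x axis, percent); dark bars were called against both days, pale bars on one side, and dotted lines mark all named genes. Cholesterol synthesis (58.8%), MHC class I (43.8%), interferon response (42.9%) and glycolysis (25.9%) have the longest dark peak bars, and the NRF2 bar counts Sqstm1 as a trough.

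The 12 largest eligible peaks, ranked by excursion, were Lypd8, Atp12a, Mx2, Ifi27l2b, Cmahp, Ptges, Nsl1, Adam28, Mdk, Fam229a, Krt17 and Rtp4. Lypd8, a GPI-anchored protein known from the colon epithelium, had 9.50, 9.78 and 10.25 at D2, against 6.48, 6.02 and 7.64 at D0 and 6.10, 5.88 and 5.58 at D8. It was detected on 1 of 3 D0 arrays and 0 of 3 D8 arrays, and D2 was at least 10.7-fold above D8. Ptges, which makes prostaglandin E2, had 8.10, 8.16 and 8.64 at D2, against 5.38, 4.35 and 4.61 at D0 and 5.87, 5.61 and 5.88 at D8. It was not detected at either end point, and D2 was at least 3.11-fold above D0 and at least 3.65-fold above D8. Atp12a, a proton and potassium pump, was detected on 3 of 3 arrays at D2 and at D4, on 0 of 3 at D0 and on 1 of 3 at D8.

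Krt17 and Mdk belong to the epithelial genes among them. Krt17, a keratin of basal and injured epithelia, had 8.68 to 10.40 at D2, against 6.63, 6.77 and 6.59 at D0 and 8.19, 7.68 and 6.94 at D8. All D2 arrays were above the rest, that on slide 2 by the least. Mdk, the heparin-binding growth factor midkine, had 9.54, 10.32 and 11.18 at D2, against 7.90, 8.12 and 7.54 at D0 and 8.35, 7.99 and 8.20 at D8. Mdk was the 1 peak against both days among 16 measured markers of the Krt8-positive transitional state described in mouse lung, where Krt7 was a peak on one side, Cdkn1a a trough against both days and Hbegf a trough on one side. The summed signal of this list was 159000 to 212000 at D2, against 153000 to 196000 at D0 and 153000 to 174000 at D8, so that the days overlapped.

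Single peaks in other lists were few. Among named genes detected on at least 3 arrays, 3.16% were peaks against both days, so that 1 such peak does not set a list apart. This holds for every list with 1 such peak. Csf1, the macrophage growth factor, had 11.55, 11.16 and 10.64 at D2, against 7.71, 7.46 and 7.64 at D0 and 10.04, 9.31 and 9.58 at D8, and was the 1 peak against both days among 32 inflammatory genes. Cldn6, a claudin of embryonic epithelia, was the 1 of 17 tight junction genes and was at least 4.42-fold higher at D2 than at D0, where it was not detected. Itgb4, the integrin subunit of hemidesmosomes, averaged 11.05 at D2, against 9.69 at D0 and 10.13 at D8. Slc1a5, a glutamine carrier of the ATF4 list, averaged 11.83 at D2, against 8.35 at D0 and 10.71 at D8. Prim2 of the DNA primase, Sec61b of the endoplasmic reticulum channel and Scarb2 of the lysosomal membrane had excursions of 0.62, 0.64 and 0.92 on the log2 scale. Wnt4, a signalling ligand, and Ccl6, a chemokine, were chosen after their values were seen. Wnt4 had 10.98, 11.16 and 10.48 at D2, against 9.79, 9.93 and 9.05 at D0 and 9.42, 9.43 and 8.07 at D8, while Ccl6 had 13.06, 13.17 and 11.84 at D2, against 11.02, 11.75 and 10.12 at D0 and 10.53, 11.27 and 10.20 at D8. Both were above all arrays of the end points, and Ccl6 was 4.4% of the way back at D4.

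**Figure D4:**
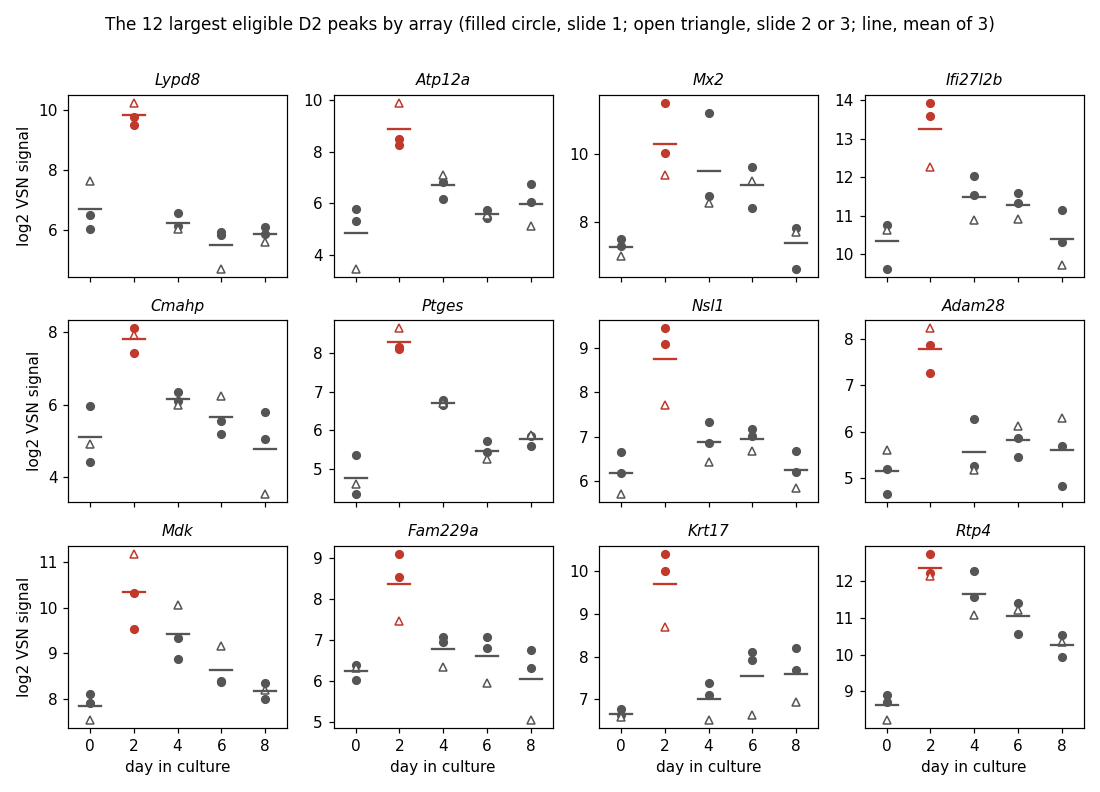
The 12 largest eligible D2 peaks by array, with log2 VSN signal (y axis) against day in culture (x axis); circles are slide 1, triangles slides 2 and 3, and lines the mean of 3. Separated arrays were required for eligibility, so that every D2 array lies above every D0 and D8 array, and Mx2 and Rtp4 stand 27.4% and 34.2% of the way back at D4.

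Other lists held peaks mostly on one side. The proteasome list had 0 peaks against both days among 30 measured subunits and 10 peaks on one side. Its median contrast was 0.29, and D2 means lay above both end points for 27 of 30. The share of all genes with such means was not counted, so that 27 of 30 is not read as a peak of the list. Between D2 and D8, 0 subunits were called different. The list's median deviation was 0.29 and 0.43 on the D2 arrays of slide 1 and −0.15 on slide 2. The last value lay below all D8 arrays (−0.08 to 0.15) and within the D0 range (−0.36 to −0.08). The actin and contractile list had 10 peaks on one side among 27 genes, Cald1 and Tagln among them. The lists of DNA replication and of mitosis had 8 kept peaks of 30 and 6 of 29, of which Prim2 alone was called against both days. Among all named genes detected on at least 3 arrays, 15.9% were kept peaks. The median D2 minus D0 difference was 0.07 for replication and −0.53 for mitosis. Of the mitosis genes, 8 were lower and 1 higher at D2 than at D0. At D8, 24 mitosis and 16 replication genes were lower than at D0.

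Among the troughs, the antioxidant genes under the transcription factor NRF2 had the highest share against both days of the 40 lists. NRF2 drives genes that make glutathione and remove reactive oxygen and quinones. Of 26 measured genes, 5 were troughs against both days (19.2%, against 1.17% of all named genes), namely Cat, Gclc, Nqo1, Osgin1 and Txnrd1, and Hmox1 and Sod2 were kept troughs. This leaves out Sqstm1, whose probes disagree. With its brightest probe the count was 6 of 27 (22.2%). The median contrast of the 27 genes was −0.23, 19 were not kept, and their median deviation from the 15-array mean was −0.44 to 0.08 over the D2 arrays, against 0.12 to 0.14 at D0 and 0.01 to 0.16 at D8, so that D2 and D8 overlapped. Osgin1, an oxidative stress response gene, had levels of 6.89, 6.88 and 6.85 at D2, against 10.92, 10.81 and 11.32 at D0 and 8.48, 8.92 and 8.25 at D8. The D2 arrays were nearly equal and below all others. Nqo1, a quinone reductase, had 12.30, 12.51 and 12.36 at D2, against 13.28, 13.42 and 13.20 at D0 and 14.53, 14.56 and 14.52 at D8, so that D8 went beyond the starting level by 1.24 (limma adjusted p = 3.61e-05). Gclc, which makes the first step of glutathione, had 10.38, 10.35 and 9.67 at D2, against 11.46 to 12.29 at D0 and 11.43, 11.55 and 11.47 at D8. Both genes had every D2 array below the other days.

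Cat, the catalase, had 9.33, 9.44 and 9.84 at D2, against 12.02, 11.40 and 11.20 at D0 and 10.46, 11.18 and 10.42 at D8, with no overlap. Txnrd1, a thioredoxin reductase, had a D2 minus D0 difference of −1.47 and a D2 minus D8 difference of −0.93 on the log2 scale. The gene of NRF2 itself, Nfe2l2, was not a list member and was chosen after its values were seen, as was Nqo1. Nfe2l2 had 11.59, 11.39 and 11.61 at D2, against 13.26, 13.27 and 12.46 at D0 and 12.48, 12.51 and 12.51 at D8, without overlap. For Sqstm1, a cargo receptor of autophagy, the brighter probe was a trough (11.96 at D2, 13.41 at D0 and 12.83 at D8) and another a peak (12.03 at D2, 11.10 at D0 and 11.02 at D8), so that no direction is given for the gene. Without the first D2 array or the second D8 array, the list counted 3 troughs against both days in place of 6 (Sqstm1 included).

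The ATF4 response answers to amino acid shortage and stress of the endoplasmic reticulum. Of 28 measured genes, 4 were troughs against both days (14.3%), 7 more were kept troughs, 1, the glutamine carrier Slc1a5, was a peak against both days, and the median contrast was −0.54. The median deviation of the list was −0.47 to −0.07 over the D2 arrays, against 0.66 to 0.93 at D0 and −0.46 to 0.31 at D8, so that D2 lay below D0 and overlapped with D8. Atf4 itself had 11.45, 11.35 and 11.43 at D2, against 14.21, 14.22 and 14.50 at D0 and 12.29, 12.35 and 12.34 at D8. The 3 days were separate, with a small spread in each. Ddit3, the stress factor CHOP, had 9.98, 10.01 and 9.43 at D2, against 12.75, 12.77 and 12.11 at D0 and 10.94, 10.80 and 10.36 at D8. Gdf15, a secreted stress cytokine, averaged 7.86 at D2, against 10.83 at D0 and 9.57 at D8, and Slc3a2, the heavy chain of an amino acid carrier, averaged 12.18, 13.74 and 12.90 at D2, D0 and D8. In these 4 genes D8 lay below D0 by test, and D2 was the lowest day. Aars1, an aminoacyl-tRNA synthetase, was the 1 trough against both days among 17 such enzymes (−0.65 against D0 and −0.71 against D8), and Ppp1r15a, which restarts translation under stress, was the 1 among 23 genes of the unfolded protein response (8.59 at D2, 13.52 at D0 and 9.30 at D8). Among named genes detected on at least 3 arrays, 2.01% were troughs against both days, so that 1 such trough does not set a list apart.

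Immediate early genes were lowest at D2 after a high start. These genes respond within minutes to growth factors and to handling of cells. Of 22 measured genes, 16 were kept troughs and 2 of these, Fos and Maff, were troughs against both days. The list median was −1.69 in the contrast, −3.09 for D2 minus D0 and −0.38 for D2 minus D8, so that the contrast came mostly from the fall since D0. Under 23 alternatives, Fos was called against both days in 17 and Maff in 19. Fos had 6.48, 6.40 and 7.08 at D2, against 14.11, 15.01 and 13.28 at D0 and 8.14, 8.83 and 8.38 at D8. The D2 arrays lay far below D0, and D2 minus D8 was −1.80 (limma adjusted p = 0.0102). Maff, a small MAF factor, was not detected at D2 and was at least 23.9-fold higher at D0. At D8, 20 of the 22 genes were lower than at D0.

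Of 21 measured genes of the EGF receptor list, 2 were troughs against both days, 4 more were kept troughs and 15 were not kept. The 2 were Errfi1 and Spry2, inhibitors that act on EGF receptor signalling, and Errfi1 was called against both days under 11 of 23 alternatives. Spry2 had 7.09, 7.10 and 6.56 at D2, against 8.94, 8.91 and 8.84 at D0 and 7.98, 8.25 and 7.77 at D8, and Errfi1 had 10.25, 9.82 and 9.91 at D2, against 14.36, 14.17 and 14.22 at D0 and 10.56, 11.18 and 10.66 at D8. In both, D2 lay below all other arrays. Spry2 was 38.2% of the way back at D4. Bmp4, a ligand, and Id2 and Id3, inhibitors of basic helix-loop-helix factors that BMP signals induce, were 3 troughs against both days among 21 TGFB family genes. Id3 had 7.35, 7.38 and 7.30 at D2, against 8.29, 8.94 and 8.14 at D0 and 9.18, 8.99 and 9.05 at D8, and Bmp4 had 9.31, 9.99 and 10.08 at D2, against 10.52, 11.95 and 10.26 at D0 and 11.19, 11.43 and 11.44 at D8. Both genes were below every other array at D2.

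The 12 largest eligible troughs were Me3, Itga11, Plbd1, Hpse, Nr1d1, Fabp3, Fos, Cfp, Gdf15, Osgin1, Hspb1 and Egfl6. Me3, a mitochondrial malic enzyme, had 6.10, 6.01 and 6.33 at D2, against 8.40, 8.67 and 8.16 at D0 and 8.39, 8.51 and 8.61 at D8. It was detected on none of the D2 arrays and on all arrays of the end points, and was at least 4.33-fold higher at D0 and at least 4.62-fold higher at D8 than at D2. Hpse, the heparan sulfate cleaving enzyme heparanase, had 7.87, 8.05 and 8.24 at D2, against 10.31, 10.39 and 9.84 at D0 and 11.17, 11.56 and 11.22 at D8. Both had returned by D4, Me3 by 94.9% and Hpse by 98.3% of the way. Plbd1, a phospholipase B domain protein, had 7.96, 8.50 and 8.11 at D2, against 10.59, 10.50 and 10.22 at D0 and 10.38, 10.75 and 9.86 at D8. Cfp, the complement protein properdin, had 7.38, 8.08 and 7.23 at D2, against 9.30, 9.83 and 8.79 at D0 and 9.86, 10.46 and 9.92 at D8. Both are also genes of myeloid cells, and both lay below the end points on all D2 arrays. Sod3, a secreted superoxide dismutase, had a larger excursion (−2.82) but missed the requirement of detection on all D0 and D8 arrays.

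Among the rest, Itga11, a collagen-binding integrin subunit, had 7.74, 8.04 and 7.47 at D2, against 10.80, 10.68 and 10.61 at D0 and 10.91, 9.65 and 9.22 at D8. It was 34.7% of the way back at D4. Hspb1, a small heat shock protein, had 12.17, 11.84 and 11.55 at D2, against 14.41, 13.75 and 13.65 at D0 and 13.48, 13.46 and 13.52 at D8. It was the 1 trough against both days among 21 chaperone genes (4.76%, against 2.01% of named genes detected on at least 3 arrays). Egfl6, an extracellular matrix protein, averaged 11.78 at D2, against 14.68 at D0 and 13.39 at D8. Cdkn1a, the cell cycle inhibitor p21, had 7.14, 6.85 and 7.63 at D2, against 9.47, 9.21 and 9.29 at D0 and 8.50, 8.25 and 7.94 at D8. It was with Gdf15 a trough against both days among 18 targets of p53. Atp1b1, the beta subunit of the sodium pump that AT1 and AT2 cells use to clear fluid, averaged 13.04 at D2, against 13.94 at D0 and 14.01 at D8. All of these were below the arrays of both days at D2.

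The genes that follow are in no list, and all but Nr1d1, one of the 12 largest, were chosen because their values were low at D2, so that they stand for no group. Nr1d1, the clock repressor REV-ERB alpha, had 5.96, 6.03 and 5.24 at D2, against 11.84, 11.59 and 11.27 at D0 and 7.31, 7.47 and 8.06 at D8. It was not detected at D2, and was at least 38.6-fold higher at D0 and at least 2.49-fold higher at D8. Klf9, a factor induced by glucocorticoids, had 10.94, 10.72 and 10.88 at D2, against 13.93, 13.89 and 13.59 at D0 and 12.30, 12.52 and 12.02 at D8. Tsc22d3, which encodes the glucocorticoid-induced leucine zipper GILZ, had 11.31, 11.44 and 11.50 at D2, against 12.23, 12.71 and 12.20 at D0 and 13.05, 13.34 and 12.50 at D8. Neither gene overlapped at D2 with the other days. Sgk1, a kinase that raises sodium uptake, averaged 11.35 at D2, against 12.66 at D0 and 12.33 at D8. Klf15, a transcription factor of metabolism, averaged 6.16, 7.75 and 7.53 at D2, D0 and D8. Hsd11b1, which forms active glucocorticoid in the cell, had 9.58 to 11.58 at D2, against 13.83 to 14.14 at D0 and 11.36 to 12.07 at D8, and overlapped with D8. Klf5, an epithelial transcription factor, had 12.26, 12.29 and 11.94 at D2, against 15.18, 15.30 and 15.30 at D0 and 12.93, 13.46 and 13.28 at D8. In Hsd11b1 and Klf5 the D8 level stayed below D0 by test (−2.22 and −2.04).

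**Figure D5:**
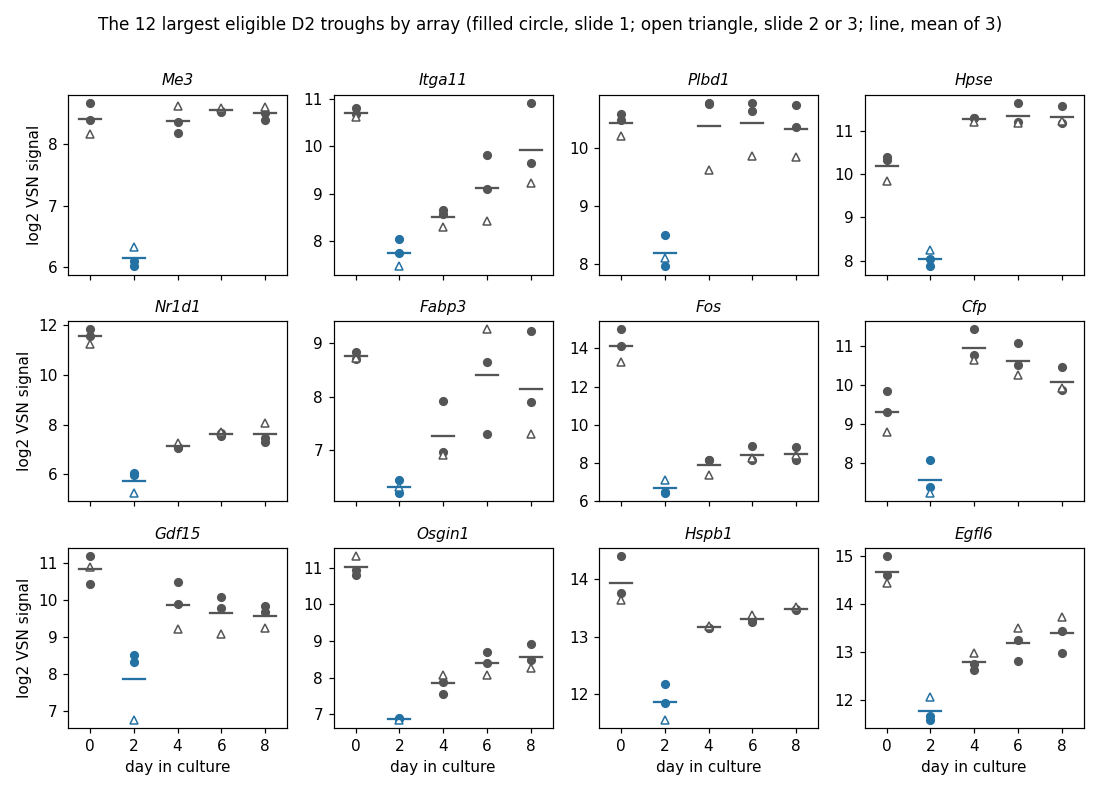
The 12 largest eligible D2 troughs by array, with log2 VSN signal (y axis) against day in culture (x axis); circles are slide 1, triangles slides 2 and 3, and lines the mean of 3. Separated arrays were required for eligibility, so that every D2 array lies below every D0 and D8 array, and Me3, Plbd1 and Hpse stand at the D8 level from D4 on (94.9%, 103% and 98.3% of the way back at D4).

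The D4 and D6 arrays, which the rule did not use, show when the passing level was left. At D4 the median peak had gone 75.4% of the way to its D8 level (SD over the 3 D4 arrays 3.33) and the median trough 75.1% (SD 1.87). At D6 the shares were 93.1% and 94.1%. Of 346 peaks, 288 were over halfway at D4 and 325 at D6, and of 193 troughs, 160 and 192. Over all 22523 probes, 13083 were over halfway at D4 and 14236 at D6. The D2 and D8 values that chose the members also enter the way back, so that a return is partly built in. D4 lay beyond D2 at 7 peaks and 1 trough, against 5668 of all probes. For nearly all members D2 was thus the extreme of the sampled days, which the choice by an extreme D2 favours. No probe differed between D4 and D6 by limma at the adjusted threshold, although 1049 (4.66%) had an unadjusted p under 0.05. Of the peaks 34 were among these, and of the troughs 24. By list, the median trough against both days was 73.1% of the way back at D4 and 91.0% at D6 for NRF2 genes without Sqstm1, 74.6% and 92.4% for ATF4 genes, and 49.0% and 93.4% for the immediate early genes Fos and Maff.

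Lasting changes were far more numerous, with 2154 probes increased (9.56%) and 1704 decreased (7.57%) at both D2 and D8 relative to D0 with no call as a peak or trough against both days. The 4 largest increases were Wfdc1, Cald1, Tagln and Fn1. Cald1, the actin-binding caldesmon, had 13.20, 12.73 and 12.75 at D2, against 5.28, 5.84 and 5.30 at D0 and 12.86, 12.54 and 12.28 at D8, and D2 and D8 overlapped. Fn1, the matrix protein fibronectin, averaged 14.23 at D2, against 8.26 at D0 and 14.67 at D8. The 4 largest decreases were S100g, Retnla, Cxcl3 and Slc34a2. Slc34a2, the phosphate carrier of AT2 cells, averaged 7.63 at D2, against 14.81 at D0 and 6.41 at D8. D2 minus D0 was 5.96 to 7.42 in the 4 increases. The D0 levels of Cald1 lay below the lowest detected signal of their arrays (6.502, 6.47 and 7.004), so that its difference from D0 is inexact.

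Markers of other cell types differed in their course. The summed signal of 11 airway and ciliated markers was 25100 to 39000 at D2, against 54400 to 63300 at D0 and 2110 to 5490 at D8, and that of 8 erythroid markers 5430 to 9450 at D2, 34600 to 59900 at D0 and 380 to 1390 at D8. The 14 fibroblast and smooth muscle markers summed to 2540 to 4410 at D2, 2830 to 3590 at D0 and 11800 to 51300 at D8, with 10 of the 14 detected on no D2 array. Mfap4 was the 1 trough against both days in that list, at levels mostly not detected, and Egfl7 the 1 peak against both days among 11 endothelial markers, detected on 2 of 3 D2 arrays and on none at D0 or D8. The endothelial sums were 2380 to 2720, 2240 to 3600 and 3160 to 3430 at D2, D0 and D8. The 4 mesothelial markers summed to 24800 to 34400 at D2, against 23400 to 30100 at D0 and 18000 to 20300 at D8, with a median contrast of 0.42, 0 of 4 kept and 2 of 4 detected on no array of these days. The macrophage and leukocyte sums given above were 45400 to 76900 at D4 and 43400 to 63000 at D6. The part of these cells in the peaks and troughs was not tested. The D2 array on slide 2 had the highest median raw signal of the 15 (246.8, against 170.8 to 206.2 in the others), and 7615 to 9787 probes were detected per array.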

How the data were processed

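The intensity values deposited by the authors are BeadStudio output without scaling between arrays, each beside the deposited detection p-value of its probe. The authors also deposited log2 values after Variant Stabilization and Normalization (VSN) through LUMI, and the submitters' processing notes name R 2.11.1 and limma. VSN was fitted again to the raw intensities of all 22523 probes and 15 arrays (trimming quantile 0.9, 7 rounds, 5 slices), and the deposited log2 values served as an alternative. A probe with a detection p under 0.01 was counted as detected, and no probe was filtered out. limma 3.58.1 (R 4.3.3, with statmod 1.5.0) fitted 1 mean per day to all 15 arrays with slide 1 against slides 2 and 3 as a block, and adjusted each contrast by Benjamini-Hochberg over all probes at 0.05. Standard errors are those of the fit. The scripts were tested on simulated data.

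The probe table gives 1 gene symbol for 13793 probes (13337 genes; 13752 brought to the current RefSeq symbol), and 8730 probes have none. The 40 gene lists hold 950 symbols, of which 790 have a named probe, and each gene was read on its brightest probe. The members and the lists were chosen with earlier results of these data known. Genes named were the 12 largest excursions per direction among members with 1 symbol, separated arrays and detection on all D2 arrays (peaks) or all D0 and D8 arrays (troughs), up to 4 members per list and direction against both days, the 4 largest lasting changes per direction, and Sftpc, Aqp5 and Pdpn. Others are marked as chosen after their values were seen, as are list members named beyond 4. A fold against a day without detection is a lower bound from the dimmest detected signal of each array. Summed signals of marker lists are sums of VSN values on the linear scale. The way back is (D2 − D4)/(D2 − D8) in percent, with D6 in place of D4 for D6. Alternatives were the deposited values, neqc, quantile and median scaling, detected probes only, the 9 arrays of D0, D2 and D8, other treatments of the slide, moderation with trend and robust, stricter thresholds, the mean of the later days, and leaving out each array of D0, D2 and D8 in turn. Slides were known from the array titles. Human arrays were not used here.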

Additional observations from a re-analysis of the deposited data

How the results depend on the processing

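Of 87 named genes called against both days and measured under all 23 alternatives, 76 were kept and 43 called against both days under all, and 8 (Fabp3, Prim2, Ifitm1, Aars1, Errfi1, Irf9, Gapdh and Hsd11b1) were called so under fewer than 12. Mfap4 and Egfl7 had a value under 22. Of 100 named genes, 0 contrasts reversed, 12 were no longer past the threshold under at least 1 alternative, and 2, Sftpc and Pdpn, came past it. The contrast called 3571 probes, against 2132 without the slide block, 2044 at an adjusted p of 0.01 and 1327 at a contrast of at least 1. Kept peaks (1684) numbered 3629 with median scaling, 955 without the block, 969 at an adjusted p of 0.01 and 549 at a contrast of at least 1. Kept troughs (1276) numbered 816, 734 and 515 under the last 3 of these. Median scaling gave 75.7% of calls as higher, against 54.9% with VSN.

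Peaks against both days (346) and troughs (193) numbered 619 and 293 with the authors' values, 569 and 326 with neqc, 714 and 338 with quantile normalization, 1379 and 113 with median scaling, 654 and 366 with detected probes only, and 530 and 306 with trend and robust moderation. They numbered 183 and 86 with the 9 arrays alone, 161 and 86 without the block, 189 and 117 on slide 1 alone, and 146 and 71 at an adjusted p of 0.01. Troughs numbered 297 with the mean of D4, D6 and D8 in place of D8. The cause of these shifts was not tested. The share of the way back at D4 for peaks (75.4%) was 79.3% with neqc, 80% with quantile normalization, 68.8% with median scaling, 79.5% without the block, 82.3% on slide 1 alone and 83.7% with the mean of the later days. For troughs (75.1%) it was 73.1% with the authors' values and with quantile normalization, 87.9% with median scaling, 73.2% with slide as 3 levels, 80.7% on slide 1 alone, 77.1% at a contrast of at least 1 and 84.4% with the mean of the later days. The fit of 9 arrays gives no such share.

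Without the block the interferon list had 5 peaks against both days, MHC class I 3, glycolysis 3, and the ATF4 list 1 trough. At an adjusted p of 0.01 they were 6 for interferon, 4 for MHC class I and 4 for glycolysis, and NRF2 had 3 troughs. Glycolysis had 12 with median scaling and 4 with the 9 arrays, with slide as 3 levels and on slide 1 alone, and NRF2 3 with the 9 arrays. With 1 array left out at a time, the calls ranged from 2458 to 3773, kept peaks from 1142 to 1765, kept troughs from 913 to 1322, peaks against both days from 184 to 376, troughs from 100 to 218 and lasting changes from 3307 to 3843. The way back ranged from 74.8% to 79.7% for peaks and from 71.5% to 80.3% for troughs. Peaks against both days ranged from 6 to 10 for interferon, 9 to 13 for cholesterol, 5 to 7 for MHC class I and 4 to 8 for glycolysis. Troughs against both days ranged from 3 to 6 for NRF2 and 3 to 4 for ATF4, and kept troughs from 15 to 16 for immediate early genes and 9 to 13 for ATF4. Interferon counts of 9 and 10 without single arrays of D0 lay below the 12 of the full fit.

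No paired analysis was possible because the labels carry no replicate numbers that tie arrays of different days together. Signal over background limits the folds, since 84 of 346 peaks were detected on no D0 array and 28 of 193 troughs on no D2 array.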
